A study of Bos taurus with 6 samples.

Results

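Cells make cholesterol from acetyl-CoA through mevalonate, isoprenoids, squalene and a series of sterols, and store the surplus as cholesteryl esters. The genes of the synthetic enzymes are, in mammals, classical targets of the sterol-sensing transcription factor SREBP2. The embryo uses cholesterol for membranes, while ovarian cells also use it as the substrate of steroid hormones. Measured here were 8 enzymes of the route, in pathway order HMGCS1, IDI1, FDFT1, SQLE, LSS, EBP and DHCR7, with SOAT1 for esterification. The members comprised all probes carrying one of these symbols in the array's annotation, 12 of 43794 probes, of which 21790 carried a symbol. There were 4 for HMGCS1, 2 for FDFT1 and 1 for each of the others. All 12 passed the filter on dim signals, and the 8 genes stand among 13227 tested.

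RNA of bovine in-vitro blastocysts was compared with RNA of bovine granulosa cells on 6 oligonucleotide arrays with 2 colours. The blastocysts, labelled Holstein, were collected on day 7 after fertilisation. They came from abattoir oocytes of 3 to 6 mm follicles fertilised with mixed semen of 3 bulls, and were cultured in SOF medium with 0.8% BSA. The granulosa cells, the somatic cells lining the ovarian follicle, came from lactating Holstein cows on days 8 to 11 after oestrus and from follicles over 5 mm. According to the labels, follicle-stimulating hormone began 36 h after such follicles had been aspirated, as 6 injections of 40 mg or 240 mg in all, and the cells were taken 44 h after the last one. The blastocysts were thus embryos made outside the animal and the granulosa cells came from stimulated ovaries, and the number of animals or embryos in a pool was not stated. Each array carried both RNAs, with blastocyst RNA in Cy3 on 3 arrays and in Cy5 on the other 3. The arrays are numbered 1 to 3 in each orientation, and same-numbered arrays were averaged to give 3 replicates. The labels do not say how the pools of one number were made. The p-values therefore reflect only the spread among 3 pools, and some of it may be technical.

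The median raw signal of an array was 189 to 386 in Cy3, against 177 to 210 in Cy5, and precision is limited by having 6 arrays. All 7 blastocyst markers examined were higher in blastocysts. Of these, POU5F1, NANOG and IFNT were above background on no granulosa array, so that they were tested through their blastocyst signal alone. Of 6 tested granulosa markers, 4 were higher in granulosa cells, while the aromatase gene CYP19A1 and the receptor gene FSHR did not pass. Another granulosa marker, FOXL2, did not pass the filter on dim signals. In RNA of whole pools, fewer cells of a type and less RNA per cell cannot be told apart.

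The comparison asked which enzymes had more or less transcript in the embryo than in the follicle's somatic cells. Of the 8 enzymes, SOAT1 and EBP were higher in blastocysts, 3.73-fold and 2.38-fold, and none was higher in granulosa cells. HMGCS1, which makes the precursor of mevalonate, and FDFT1, which makes squalene, had ratios in the same range by their brighter probes but did not pass. SQLE, the oxygenase that acts on squalene, had a mean ratio near 0, with opposite signs in different replicates. A probe passed at a limma adjusted p under 0.05 with an absolute log2 ratio, blastocysts over granulosa cells, of at least 1. By this rule 2 of the 12 probes passed, against 10.1% of all 35034 tested probes, and both were higher in blastocysts, against 4.95% of all probes, while 5.19% of all probes were higher in granulosa cells. Taken gene by gene, on the brightest probe of each, 2 of 8 enzymes passed, against 13.7% of 13227 genes and 5.86% in that direction. With so few members these shares are a description. The median log2 ratio over the 8 enzymes was 0.92, against -0.02 over all genes. It was 1.00, 1.55 and 0.19 in replicates 1 to 3, and the median over all 12 probes was 0.54.

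**Figure D1:**
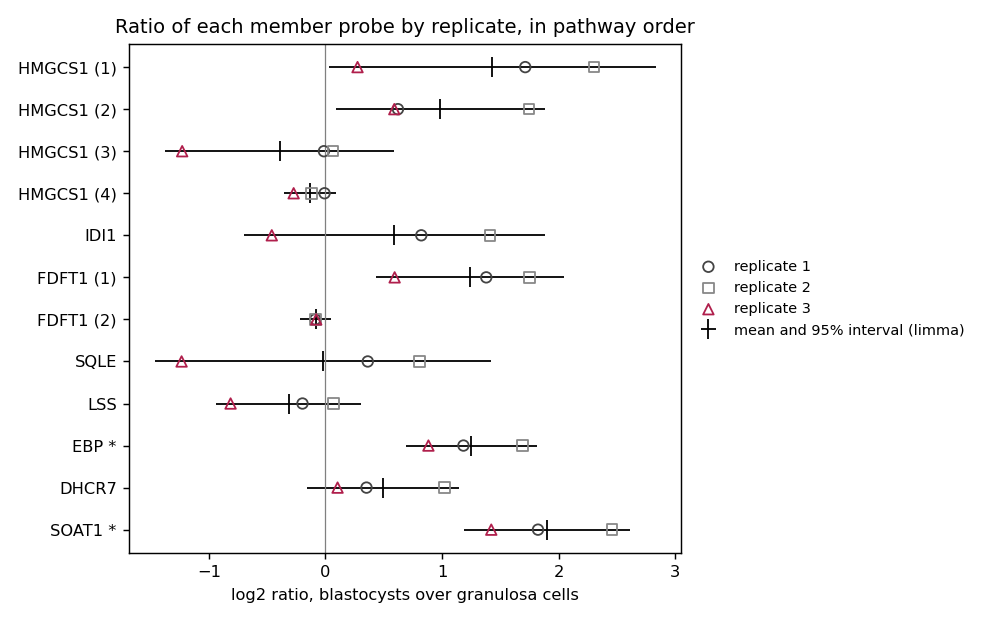
Log2 ratio, blastocysts over granulosa cells, of each of the 12 probes (rows, in pathway order, the probes of a gene numbered by falling brightness). Open symbols are the 3 replicates, ticks and bars the mean with its 95% interval from limma, and stars mark EBP and SOAT1, which passed. In 11 of 12 rows the triangle of replicate 3 lies lowest.

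SOAT1, sterol O-acyltransferase, joins cholesterol to a fatty acid in the endoplasmic reticulum and so makes the ester stored in lipid droplets. Its normalized log2 intensity was 14.90, 14.70 and 14.75 in blastocyst pools 1 to 3, against 13.07, 12.25 and 13.32 in granulosa pools 1 to 3. All blastocyst pools lay above all granulosa pools. The log2 ratio was 1.82, 2.46 and 1.42 in replicates 1 to 3, with a mean of 1.90 ± 0.52 (SD, n = 3, 95% interval 1.19 to 2.61, adjusted p = 0.0262). The ratio was positive on all 6 arrays. Its blastocyst signal exceeded 30000 intensity units, close to the largest signals on the arrays, on 2 of 6 arrays, and the effect of that on the ratio was not tested. Leaving out any replicate ended the call, and the limma adjusted p became 0.104 (replicate 1 left out), 0.0694 (replicate 2) or 0.0519 (replicate 3). The log2 ratio then lay between 1.62 and 2.14. Without replicate 2 no probe of the 35034 tested passed, so that no call could have held there.

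EBP, the sterol isomerase that moves a double bond of the ring system late in the route, gave 9.47, 9.83 and 9.55 in blastocyst pools 1 to 3, against 8.29, 8.14 and 8.66 in granulosa pools 1 to 3. Here too the groups did not overlap. The log2 ratios were 1.18, 1.69 and 0.88, with a mean of 1.25 ± 0.41 (SD, n = 3, 95% interval 0.69 to 1.81, adjusted p = 0.0361), and all 6 arrays had the same sign. The call ended without replicate 1 (1.29, limma adjusted p = 0.128), replicate 2 (1.03, 0.0854) or replicate 3 (1.44, 0.0644). Without replicate 2 no tested probe of any gene passed. The EBP call also ended on the net intensities that the authors deposited (1.22, adjusted p = 0.0506).

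HMGCS1, the cytosolic HMG-CoA synthase at the head of the mevalonate pathway, was read by 4 probes, whose mean log2 ratios ran from -0.39 to 1.43. The brightest (EMBV3_14732) stood at 14.65, 15.06 and 14.90 in blastocyst pools, against 12.94, 12.76 and 14.63 in granulosa pools. Granulosa pool 3 therefore came close to the blastocyst pools, while pools 1 and 2 lay far below. Its log2 ratio was 1.71, 2.30 and 0.27 in replicates 1 to 3, averaging 1.43 ± 1.04 (SD, n = 3, 95% interval 0.03 to 2.83, adjusted p = 0.136), and its blastocyst signal exceeded 30000 units on 3 of 6 arrays. The next probe (EMBV3_08646) averaged 0.99 ± 0.66 (adjusted p = 0.119) and was also positive on all 6 arrays. The third (EMBV3_28348) gave -0.01, 0.07 and -1.23, averaging -0.39 ± 0.73 (adjusted p = 0.442). The dimmest (EMBV3_24024) was above background on 2 blastocyst and 3 granulosa arrays, averaged -0.13 ± 0.13 (adjusted p = 0.289) and changed sign with the dyes, at 0.16 with blastocyst RNA in Cy3 and -0.42 with granulosa RNA in Cy3. The part of the transcript each probe reads was not analysed here. When all 6 arrays were fitted with a replicate block and a dye term, the brightest probe passed (adjusted p = 0.0256). It also passed with the block and no dye term (0.0132), but in no other alternative tried. The block with a dye term gives all probes the same correlation between same-numbered arrays (0.655). For this probe those arrays gave 1.68 and 1.75, 2.07 and 2.53, and 0.02 and 0.53 in replicates 1 to 3.

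IDI1, the isomerase that turns isopentenyl into dimethylallyl diphosphate, had 11.66, 12.43 and 12.18 in blastocyst pools, against 10.84, 11.02 and 12.64 in granulosa pools. Granulosa pool 3 was the highest of the 6 and the other granulosa pools were the lowest. The log2 ratios were 0.82, 1.41 and -0.46, averaging 0.59 ± 0.96 (SD, n = 3, 95% interval -0.70 to 1.88, adjusted p = 0.388).

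FDFT1, squalene synthase, is the enzyme that commits the route to sterols. Its brighter probe (EMBV3_14929) gave 11.41, 11.78 and 11.73 in blastocyst pools, against 10.03, 10.03 and 11.14 in granulosa pools. The groups did not overlap, and the ratio was positive on all 6 arrays. The mean log2 ratio was 1.24 ± 0.59 (SD, n = 3, 95% interval 0.44 to 2.05), which is 2.36-fold, and missed the threshold with an adjusted p of 0.068. It passed by limma without replicate 3 (1.57, adjusted p = 0.0462). In each dye orientation alone it passed too (adjusted p = 0.0494 with blastocyst RNA in Cy3 and 0.0462 with granulosa RNA in Cy3). Both orientations hold the same replicate numbers, so these are not separate results. With the replicate block and dye term the adjusted p was 0.00493. That fit gives all probes the same correlation between same-numbered arrays (0.655). For this probe those arrays gave 1.46 and 1.30, 1.82 and 1.68, and 0.68 and 0.51 in replicates 1 to 3. The probe also passed without normalization (adjusted p = 0.0396) and among probes above background on all arrays in both cell types (adjusted p = 0.0495). It did not pass without replicate 1 (1.17, limma adjusted p = 0.223) or replicate 2 (0.99, 0.209), and without replicate 2 no tested probe passed. Nor did it pass without background correction (adjusted p = 0.0838), with the deposited net intensities (0.0844) or with median centring (0.0698). The dimmer probe (EMBV3_23196) gave -0.08 ± 0.004 (adjusted p = 0.276), with 7.37 to 7.48 in blastocyst pools and 7.45 to 7.56 in granulosa pools. Its sign changed with the dyes.

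SQLE, squalene epoxidase, is a rate-limiting enzyme of the sterol part of the pathway. Its log2 intensity was 11.33, 12.05 and 11.77 in blastocyst pools 1 to 3, against 10.97, 11.24 and 13.01 in granulosa pools 1 to 3. Blastocysts were thus higher in replicates 1 and 2 and lower in replicate 3. The log2 ratios of 0.36, 0.81 and -1.23 averaged -0.02 ± 1.07 (SD, n = 3, 95% interval -1.47 to 1.42, adjusted p = 0.977), so that differences of more than 2-fold in either direction lie within the interval. The direction of this mean turned with the scaling, at 0.15 with median centring.

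LSS, which closes squalene epoxide into lanosterol, was dim, with signal above background on 2 of 6 blastocyst and 4 of 6 granulosa arrays. It had 6.98, 7.18 and 6.90 in blastocyst pools, against 7.18, 7.11 and 7.72 in granulosa pools, and a log2 ratio of -0.31 ± 0.45 (SD, n = 3, adjusted p = 0.351). DHCR7, the reductase of the last step in one branch of the route, had 8.20, 8.91 and 8.48 in blastocyst pools, against 7.85, 7.89 and 8.37 in granulosa pools. The pools of DHCR7 overlapped by little, and its log2 ratio was 0.35, 1.02 and 0.10, averaging 0.49 ± 0.47 (SD, n = 3, 95% interval -0.16 to 1.14, adjusted p = 0.213). Over the 12 probes, blastocyst pools lay wholly above granulosa pools in 4, against 19.6% of all tested probes, and wholly below in 1, against 22%. That probe was the dimmest one of HMGCS1.

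**Figure D2:**
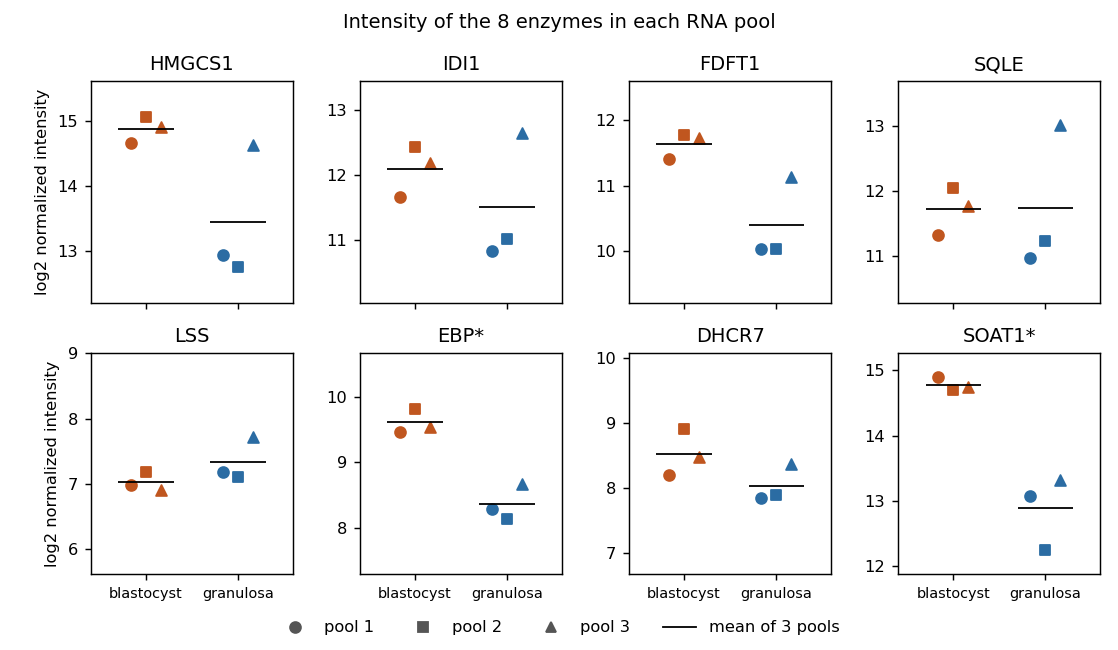
Normalized log2 intensity of each enzyme's brightest probe in the 3 blastocyst pools (left in each panel) and the 3 granulosa pools (right), with lines for the means. Every panel spans the same number of log2 units, and stars mark genes that passed. Granulosa pool 3 (blue triangle) is the highest granulosa pool in all 8 panels.

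The replicates of most enzymes differed by more than dye-swapped arrays of the same number did. A limma F test of the ratio over the 3 replicates, with the spread of same-numbered arrays as its only error, passed for 10 of 12 probes at an adjusted p under 0.05. Over all tested probes it passed for 37.6%. The brightest probes of all 8 enzymes passed, against 48.3% of all genes. The smallest adjusted p were those of SQLE (1.91e-06), IDI1 (4.1e-06) and the brightest HMGCS1 probe (1.07e-05), and SOAT1 (0.000222) and EBP (0.00169) passed as well. The 2 probes that did not pass were the dim probes of HMGCS1 (EMBV3_24024, adjusted p = 0.249) and FDFT1 (EMBV3_23196, adjusted p = 0.998). Without the dye term 6 probes passed in place of 10.

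Granulosa pool 3 was the brightest granulosa pool for all 12 probes, against 37.1% of all tested probes. This pattern was noticed after the values were seen, and granulosa intensities were not tested on their own. For the dim probes of HMGCS1 (EMBV3_24024) and FDFT1 (EMBV3_23196) pool 3 led the next granulosa pool by only 0.032 and 0.023 log2 units. By the brightest probe of each enzyme, the excess of pool 3 over the mean of granulosa pools 1 and 2 was 1.90 log2 units for SQLE, 1.78 for HMGCS1 and 1.71 for IDI1. It was 1.11 for FDFT1, 0.66 for SOAT1, 0.57 for LSS, 0.50 for DHCR7 and 0.45 for EBP. For 5 probes pool 3 exceeded both other granulosa pools by at least 1 log2 unit, against 0.919% of all tested probes. Among the 8 brightest probes there were 4, against 1.37% of all genes. The 5 were those of SQLE, IDI1, 2 of HMGCS1 and the brighter one of FDFT1. In the blastocyst RNA of the same arrays, pool 3 differed from the mean of pools 1 and 2 by -0.178 to 0.135 log2 units over the 8 enzymes' brightest probes. The 3 blastocyst pools of these probes spanned 0.195 (SOAT1) to 0.772 (IDI1) log2 units, against 0.525 (EBP) to 2.04 (SQLE) in granulosa pools. For DHCR7 alone the blastocyst pools spanned more than the granulosa pools (0.716 against 0.527). The ratio was lowest in replicate 3 for 11 of 12 probes, against 32% of all tested probes, and for all 8 enzymes by the brightest probe, against 30.6% of all genes. The SD over granulosa pools exceeded that over blastocyst pools for 9 probes, against 61.5% of all tested probes.

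Markers of other cells also differed between granulosa pool 3 and the other granulosa pools, though unevenly within some lists. All 7 tested leukocyte markers were dimmer there than in the mean of pools 1 and 2, with differences of -3.46 to -0.72 log2 units. Their mean log2 intensity was 7.17 to 7.30 in blastocyst pools, against 9.69, 8.79 and 7.56 in granulosa pools 1 to 3. Of these, LCP1 was above background on no blastocyst array. The 5 endothelial markers averaged 8.90, 8.93 and 7.16 in granulosa pools 1 to 3, and the 4 tested markers of surface epithelium 9.05, 11.17 and 7.77. The 4 theca markers averaged 7.66, 7.88 and 7.47, the 3 cumulus markers 8.20, 7.78 and 8.38, and the 2 tested red cell markers 10.17, 8.04 and 7.98. Single markers could carry such means. The theca mean followed NR2F2 (8.95, 9.45 and 7.89). LHCGR (6.87, 7.15 and 7.35) was the 1 theca marker brighter in pool 3 than in the mean of the others. Among surface epithelium markers that was CDH1 alone, nearly level at 7.05, 7.04 and 7.16. KRT18 of that list also counts among the blastocyst markers. Endothelial KDR stood at 12.16, 11.85 and 6.82 in granulosa pools 1 to 3, but CDH5 at 7.235, 7.272 and 7.271. Only 1 of 3 cumulus markers, TNFAIP6 (9.54, 7.96 and 10.7), was brighter in pool 3 than in the mean of the others. The red cell mean followed HBB (12.97, 8.85 and 8.95), high in pool 1 alone. The 6 tested granulosa markers averaged 12.67, 12.14 and 13.77, with 5 of 6 brighter in pool 3 than in the mean of the others. The part of these marker differences in the values of the enzymes was not tested.

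**Figure D3:**
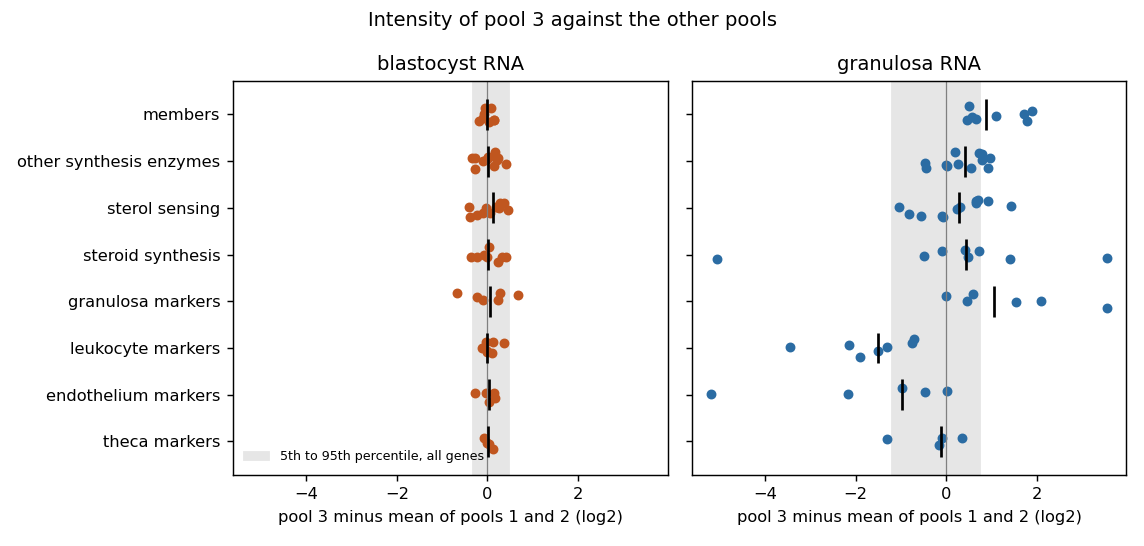
Log2 intensity of pool 3 minus the mean of pools 1 and 2, in blastocyst RNA (left) and granulosa RNA (right), for the genes of 8 lists (points, brightest probe per gene, with black lines at list medians). Grey bands hold the 5th to 95th percentile of all tested genes. In granulosa RNA the 8 enzymes lie between 0.45 and 1.90 with a median of 0.89, while all leukocyte markers lie below 0.

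Other enzymes of cholesterol synthesis were also examined. Of 12 tested among 17 listed, 1 was higher in blastocysts, none in granulosa cells and 11 did not pass, with a median log2 ratio of 0.32. The one that passed was ACAT2, the thiolase that joins acetyl-CoA units ahead of HMGCS1, at 2.16 ± 0.69 (SD, n = 3, 4.47-fold, adjusted p = 0.0315). Its log2 intensity was 12.18, 13.50 and 12.99 in blastocyst pools, against 10.53, 10.56 and 11.10 in granulosa pools. CYP51A1, which removes a methyl group from lanosterol, stood at 1.02 ± 0.61 (adjusted p = 0.0935) by its brightest probe, over 30000 units on 4 arrays. It passed by the probe used without such signals (1.96, adjusted p = 0.0208) and by the mean of its 3 probes (1.45, adjusted p = 0.0344). MSMO1, the next demethylating enzyme, stood at -0.87 ± 0.92 (adjusted p = 0.231), with -1.27, 0.18 and -1.51 in replicates 1 to 3. Granulosa pool 3 was the brightest granulosa pool for 9 of these 12 enzymes, against 36.8% of all genes, with a median excess of 0.41.

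**Figure D4:**
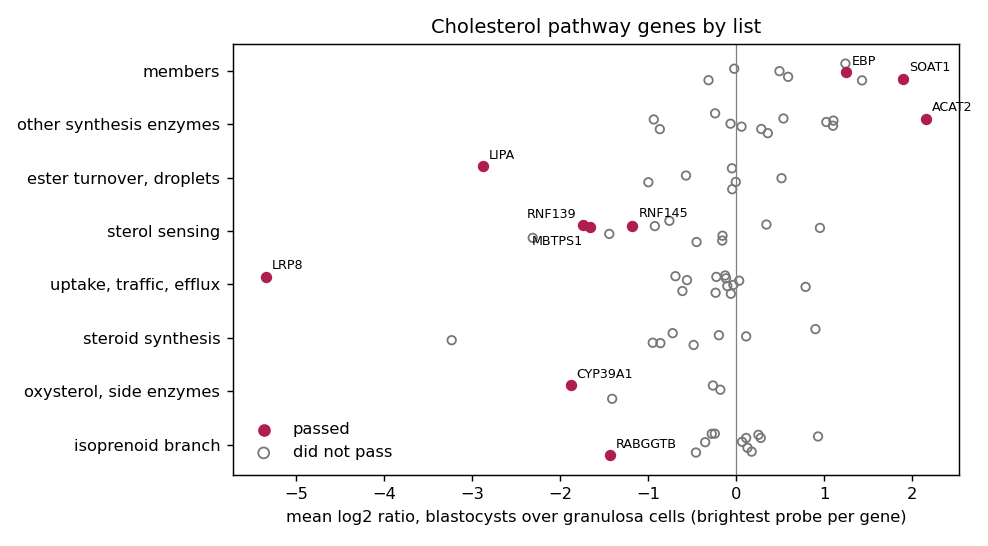
Mean log2 ratio, blastocysts over granulosa cells, of the 8 enzymes and of the tested genes of 7 other lists of cholesterol biology (brightest probe per gene). Filled points passed the threshold and are named. The filled points above 0 are SOAT1, EBP and ACAT2.

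On the remaining lists, which hold neither the 8 enzymes nor the rest of synthesis, the genes that passed were all higher in granulosa cells. Of 68 tested genes on the 7 other lists together, 1 was higher in blastocysts and 7 in granulosa cells, against 5.86% and 7.83% of all genes, and their median was -0.19. Leaving out replicate 1 or replicate 2 ended all 8 calls, while without replicate 2 no probe of 35034 passed by limma and 8503 had an unadjusted p under 0.05. The log2 ratio of LIPA was then -2.93 without replicate 1 and -2.49 without replicate 2, and that of MBTPS1 -1.64 and -1.83. Without replicate 3 there were 7 in all, 2 higher in blastocysts and 5 in granulosa cells, but these were mostly other genes. Of the 8 calls, only LIPA (adjusted p = 0.0468 by limma) and MBTPS1 (0.0497) held. The rest of the 7 had not passed with all replicates. Among 7 tested genes of ester turnover and lipid droplets, LIPA, the lysosomal lipase that hydrolyses cholesteryl esters, passed at -2.87 ± 0.71 (SD, n = 3, adjusted p = 0.021). It had 7.55, 7.12 and 7.40 in blastocyst pools, against 10.30, 10.75 and 9.63 in granulosa pools. The pools of the hydrolysing LIPA and of the esterifying SOAT1 thus stood in opposite order. The other 6 tested genes of the list did not pass, and its median log2 ratio was -0.05. Amounts of cholesteryl ester were not measured. The esterifying SOAT2 is on the array but did not pass the filter on dim signals.

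Of 12 tested genes of sterol sensing, 3 passed, and all of them were higher in granulosa cells. They were RNF139 (-1.74 ± 0.32, adjusted p = 0.0146), a membrane ubiquitin ligase, MBTPS1 (-1.66 ± 0.34, adjusted p = 0.0166), the protease that makes the first cut in SREBP, and RNF145 (-1.18 ± 0.41, adjusted p = 0.0379), another ubiquitin ligase. The call of RNF145 ended without background correction (adjusted p = 0.0539), with the deposited net intensities (0.0734) and with median centring (0.0511). The mean over all probes of the gene fell short of the ratio required for MBTPS1 (-0.88) and RNF145 (-0.61). SREBF2, which encodes SREBP2, stood at -0.45 ± 0.43 (adjusted p = 0.213) by its brightest probe, and at 0.18 as the mean of its 3 probes. Those probes ran from -0.45 to 1.11. INSIG1, which holds the SREBP complex in the endoplasmic reticulum and is itself induced by it, had 8.67, 8.69 and 8.44 in blastocyst pools, against 9.62, 9.51 and 10.99 in granulosa pools. These are values of its brightest probe, by which all blastocyst pools lay below the granulosa pools, and granulosa pool 3 was again the brightest. The log2 ratio was -1.44 ± 0.96 (adjusted p = 0.112). Its 3 probes ran from -1.44 to 1.55, with a mean of 0.06, so that the direction depended on the probe. The brightest probe passed only with the replicate block, at an adjusted p of 0.0194 with the dye term. That fit gives all probes the same correlation between same-numbered arrays.

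Of 13 tested genes of uptake, traffic and efflux, 1 passed. LRP8, a lipoprotein receptor, had 8.64, 8.48 and 8.30 in blastocyst pools, against 14.32, 12.06 and 15.07 in granulosa pools. Its log2 ratio was -5.34 ± 1.63 (SD, n = 3, 40.6-fold higher in granulosa cells, adjusted p = 0.0288), with granulosa signal over 30000 units on 2 arrays. It was -5.17, -6.23 and -4.63 without replicates 1, 2 and 3. SCARB1, the receptor for high-density lipoprotein, stood at -0.61 ± 0.22 (adjusted p = 0.047), short of the ratio required. Of 4 tested genes of oxysterol and side enzymes, CYP39A1, an oxysterol hydroxylase, passed. It was above background on no blastocyst array and on 6 granulosa arrays, so that it was tested through its granulosa signal alone. Its measured log2 ratio was -1.88 ± 0.31 (adjusted p = 0.0125). With blastocyst signals raised at least to background level it was 2.81-fold higher in granulosa cells, a bound without an interval. The other probe of CYP39A1 gave -0.19, and stood for the gene among probes above background on all arrays in both cell types (limma adjusted p = 0.24). Of 12 tested genes of the isoprenoid branch, which leaves the route before FDFT1, RABGGTB, a subunit of the enzyme that prenylates Rab proteins, was higher in granulosa cells (-1.43 ± 0.37, adjusted p = 0.0239). None of 8 tested genes of steroid synthesis passed by limma, though 3 had an unadjusted p under 0.05. Of these, FDX1, the electron carrier for side-chain cleavage, chosen after its values were seen, stood at 0.90 ± 0.32 (adjusted p = 0.0427), short of the ratio required. The others lay below 0, with CYP19A1 at -3.23 ± 2.33 (adjusted p = 0.126) and HSD17B4 at -0.48 ± 0.28 (adjusted p = 0.1). For STAR, which brings cholesterol into mitochondria, replicates 1 to 3 gave log2 ratios of -1.39, -3.69 and 2.92. Its granulosa pools stood at 11.77, 13.64 and 7.64, lowest where the 8 enzymes were highest. This order was not shared by the list, as granulosa pool 3 was the brightest granulosa pool for 5 of the 8 steroid genes, against 36.8% of all genes. CYP11A1, which cleaves the cholesterol side chain, stood at -0.95 ± 0.70 (adjusted p = 0.134), with 7.56, 8.23 and 8.61 in granulosa pools 1 to 3.

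Among the enzymes themselves, the profiles over the 6 pools most alike were those of FDFT1 and EBP, with a Euclidean distance of 0.58 log2 units between their centred values, and each of IDI1 and SQLE was nearest to the other (0.77). Over all 12440 other named genes tested, the nearest profile was that of NUP43, a nuclear pore protein, for FDFT1 (0.17), PHKB for LSS (0.18), ATP6V0A2 for DHCR7 (0.18), RALA for EBP (0.20), TIMM23 for SOAT1 (0.36), UBE2C for HMGCS1 (0.38), DMRTA2 for IDI1 (0.46) and NDUFA5 for SQLE (0.64). These are descriptions over 6 values that share arrays. UBE2C, a ubiquitin-conjugating enzyme of mitosis, had a log2 ratio of 1.48 in replicate 1, 2.02 in replicate 2 and 0.46 in replicate 3.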

How the data were processed

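Per the file headers, the deposited intensity columns used hold each spot's raw mean and median background at 532 nm (Cy3) and 635 nm (Cy5), read by wavelength name. The deposited value table holds a score whose unit is unstated. It equals the quotient of the log2 net intensities in 100% of entries to within 1e-04, signed negative on the arrays with blastocyst RNA in Cy3, with column medians of -1.00 to -0.998 there and 0.999 to 1.00 on the others. It is no log ratio, and it served for direction only.

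Raw intensities were corrected with normexp (offset 50) and normalized by loess within arrays, control spots at weight 0, with limma 3.58.1 in R 4.3.3. Figures used matplotlib 3.10.9 in Python 3.11.15. Tested were the 35034 of 43794 probes that exceeded the 95th percentile of 153 negative controls in one cell type on 3 or more of 6 arrays. Same-numbered arrays were averaged and the 3 means tested against 0 with lmFit and eBayes, Benjamini-Hochberg adjusted over all probes or, at gene level, over all genes by their brightest probe. Gene-level adjusted p are used for genes that are no members. Intensities are log2 values after loess and Aquantile. The bound of CYP39A1 sets each blastocyst array at the probe's own signal or the 95th percentile of the normalized negative controls, whichever was higher; the measured fold was 3.68. Deviations of same-numbered arrays from the mean of their orientation correlated at 0.84 to 0.93, so the numbers, taken from the titles, pair the arrays. Symbols (21790 probes) come from the platform annotation, updated through the RefSeq table of ARS-UCD2.0. The files state no genome build, so positions are left out. The fits were tested on simulated data.

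Members and lists were chosen with earlier results of these data known. Named are all members, up to 3 passing genes in each direction per list, 7 pathway genes fixed by name and each member's nearest profile. Also named, chosen after their values were seen, are FDX1, CYP19A1, HSD17B4 and single cell markers. Alternatives covered background correction, normalization, filters, replicates, the replicate block, dye orientation, bright probes and the probe standing for a gene.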

Additional observations from a re-analysis of the deposited data

How the results depend on the processing

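Of the alternatives tried, no background correction, normexp with offset 16, median centring and no filter on dim probes left 2 member probes and 2 member genes past the threshold. Member probes past it numbered 1 with the deposited net intensities (SOAT1, with EBP at an adjusted p of 0.0506 over probes, while both passed over genes), 4 with the replicate block on the 6 arrays with or without a dye term (HMGCS1, FDFT1, EBP and SOAT1, with 4 genes; the block correlation was 0.655 with the dye term and -0.003 without it, so that the fit without it took the 6 arrays as independent), and 1 without probes over 30000 units (EBP, with 1 gene, since the SOAT1 probe was left out). Leaving out 1 replicate gave 0 to 1 member probes and 0 to 1 member genes. With limma none passed without replicate 1, where 2 member probes had an unadjusted p under 0.05, or without replicate 2, where 3 had, and FDFT1 alone passed without replicate 3. The other pathway genes past the threshold, 8 as reported, numbered 13 without normalization, 14 on the arrays with granulosa RNA in Cy3, 15 with the replicate block in either form, and 0 to 7 with a replicate left out. Over all probes, 3553 passed as reported and 0 to 2541 with a replicate left out, none of them without replicate 2, where 8503 had an unadjusted p under 0.05. Without the dye term, 6 member probes differed between replicates in place of 10. The mean SQLE ratio reversed to 0.035 with the deposited net intensities, 0.15 with median centring, 0.082 on the arrays with granulosa RNA in Cy3, 0.58 without replicate 3 (-0.44 to 0.58 over the left-out replicates) and 0.0084 in the authors' value table (log2 of the quotient). EMBV3_24024 of HMGCS1 reversed to 0.16 on the arrays with blastocyst RNA in Cy3, EMBV3_23196 of FDFT1 to 0.050 on those with granulosa RNA in Cy3, EMBV3_28348 of HMGCS1 to 0.027 without replicate 3 (range -0.62 to 0.027) and STAR to 0.77 without replicate 2 (range -2.54 to 0.77). SREBF2 reversed to 0.18 and INSIG1 to 0.059 as the mean of their probes. The cause of these changes was not tested. Without normalization the median of all probes moved to -0.21, and there SOAT1 and EBP passed as before and FDFT1 also passed, all higher in blastocysts. What can be called is limited by having 3 pools of each cell type, by signals near the ceiling (HMGCS1, SOAT1) and by signals near background (LSS).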
